A study of Mus musculus with 30 samples.

Results

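The comparison described here is that of nucleus pulposus (NP) tissue from LG/J and C57BL/6 (BL6) mice at 23M, that is at 23 months of age, across genes. It takes 6 LG/J arrays and 7 BL6 arrays, or 13 of the 30 arrays in the series. A gene was a member when it lay on an autosome, was no control and had a row with exactly 1 gene symbol. Where a gene had several rows, the one with the highest mean was kept. These rules left 18674 of the 19505 genes that have a named row.

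The study asked how genetic background affects the aging of the disc in inbred mouse strains. RNA of NP tissue was read on Clariom S arrays, and each array held tissue pooled over the caudal discs of 1 animal. LG/J mice came from the Jackson Laboratory and BL6 mice from an aged rodent colony, and the labels give no treatment or engineered allele for either group. Mice of both strains at 6M, 4 arrays of LG/J and 7 of BL6, were set beside them. The study's methods give the 23M BL6 animals as both sexes, and for LG/J they print that age for a group of males and for a mixed group. By the level of Y-linked genes given below, the strain comparison was not balanced for sex.

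The nucleus pulposus is the gel-like core of the intervertebral disc. Its cells descend from the notochord, live with little oxygen, draw their energy from glycolysis and hold water in the tissue through aggrecan. The annulus fibrosus encloses it, and cartilaginous endplates separate it from the bone of the vertebrae. LG/J is known as a strain that heals ear wounds and cartilage well, while BL6 is the strain most used in aging research.

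The defining markers of NP tissue were abundant in both strains. Car3, the carbonic anhydrase by which mouse NP is often stained, had a log2 level of 19.26 to 19.46 in LG/J (median 19.39) and of 19.20 to 19.37 in BL6 (median 19.31). The ranges overlapped, and Car3 differed by 0.09 ± 0.07 (SE, limma adjusted p = 0.28). Slc2a1, the glucose transporter GLUT1, differed by 0.06 ± 0.10 (adjusted p = 0.65), and the keratin gene Krt8 by -0.17 ± 0.11 (adjusted p = 0.18). Here and below a difference is LG/J minus BL6 on the log2 scale, so that 1 is a doubling. Noto, the notochord homeobox gene, was dim in both strains, at medians of 6.22 in LG/J and 6.34 in BL6, and Pax1, Bsnd and Car12 lay below the negative controls in both.

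A gene was called when its adjusted p was under 0.05 over all genes and its fold was at least 2. Of the 18 NP markers with a row, 3 were called higher in LG/J and 1 lower. Foxa2, a transcription factor of the notochord, ran from 7.81 to 8.87 in LG/J (median 8.22) and from 6.13 to 6.97 in BL6 (median 6.55), with no overlap. Its level was 3.26-fold higher in LG/J (difference 1.70 ± 0.21, adjusted p = 3.2e-07). Cd44, the receptor for hyaluronan, was 2.87-fold higher, at 12.19 to 13.24 against 10.77 to 11.66. Sostdc1, a secreted inhibitor of BMP and WNT signals, was higher by 1.28 ± 0.26, and was not called at 0.93 ± 0.23 without the 2 BL6 arrays described below. Krt18 was lower by 1.20 on the log2 scale, and Krt19, another keratin gene, differed by -0.61 ± 0.12 (adjusted p = 0.00012), which is under the fold threshold. Krt19 ran from 15.87 to 16.73 in LG/J and from 16.71 to 17.04 in BL6, ranges that barely overlapped. The median difference over the NP markers was -0.02, beside -0.12 over all autosomal genes. Of the 18 markers 12 had a limma adjusted p under 0.05, as had 9576 of the 18674 autosomal genes, and 9 of the 18 had a positive difference. Cd24a, which was not called, ran from 16.77 to 17.21 in LG/J and from 17.22 to 17.55 in BL6.

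The arrays of a strain resembled each other more than those of the other strain. Pearson's r over genes was 0.986 to 0.994 within BL6, 0.987 to 0.993 within LG/J and 0.961 to 0.975 between strains, and the first principal component, with 60.6% of the variance, split the strains. The mean level of Y-linked genes was 9.18 to 9.75 in the 6 LG/J arrays, 9.81 to 10.12 in 3 of the BL6 arrays and 3.39 to 4.11 in the other 4. The array titles carry 1 date for each strain, and the labels do not say which step it dates. Strain and whatever that date marks cannot be told apart. The part of sequence differences under the probes in any result was not tested. Skeletal muscle genes stood out in 2 BL6 arrays, where the mean level of the 22 muscle markers was 8.25 and 8.06, against 5.77 to 6.66 in the other 5 BL6 arrays and 5.12 to 6.27 in LG/J. Those 2 arrays, BL6 replicates 1 and 6, also had a high Y-linked level (9.81 and 10.12). Leaving them out thus changes the balance of sex along with the muscle level, and the 2 cannot be told apart. Where leaving out those 2 arrays ended the call of a gene described here, its value without them is given.

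Of the 18674 autosomal genes, 1774 were called between the strains at 23M (9.5%), 591 higher in LG/J (3.16%) and 1183 lower (6.34%). The counts of called list members given below are to be read beside these shares. The strains did not overlap in 484 of the genes called higher and in 1030 of those called lower. A fold of 4 was reached by 88 of the former and 243 of the latter. The median difference of -0.12 over all autosomal genes shifted to 0.03 under quantile normalization and to 0.05 under median centring. With it, the share of calls that were higher in LG/J moved from 33.3% to 43.6% and 52.8%, so the excess of lower calls is not independent of the scaling. Among the called genes, 25 higher and 320 lower genes lay below the negative controls in both strains, and no difference is given for those.

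**Figure D1:**
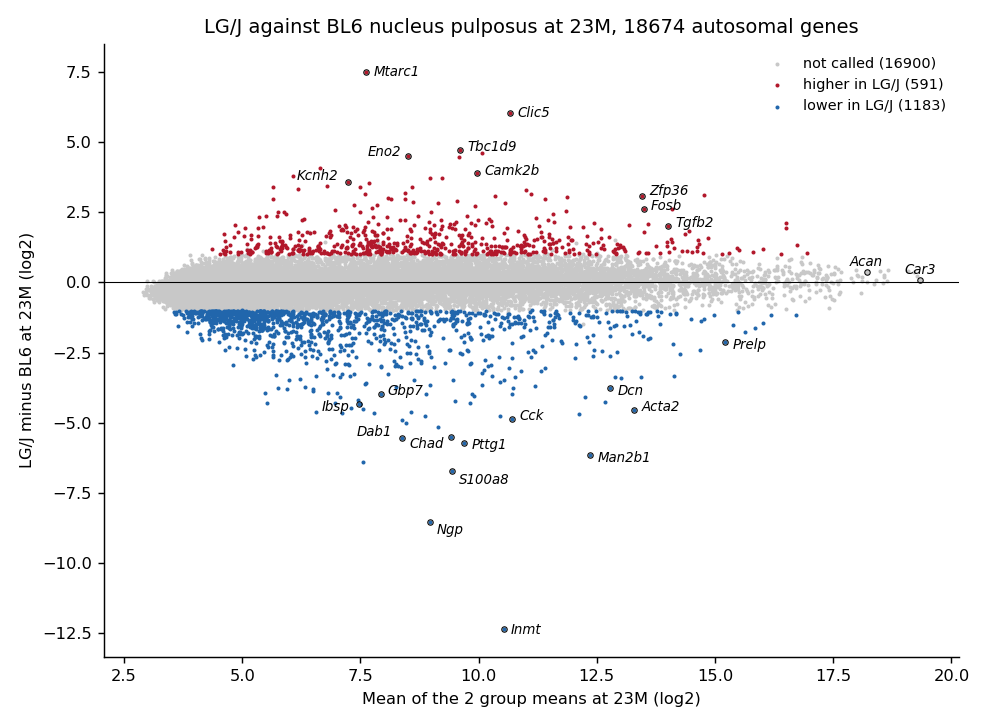
Each point is 1 of the 18674 autosomal genes, with the mean of the LG/J and BL6 group means at 23M (log2) on the horizontal axis and LG/J minus BL6 (log2) on the vertical axis. The 591 genes called higher in LG/J are red and the 1183 called lower are blue, with Mtarc1 at 7.51 and Inmt at -12.35 at the ends.

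The largest differences in either direction were those of Inmt and Mtarc1, each below the negative controls in 1 strain. Inmt, which encodes an amine methyltransferase, was among the brighter genes of BL6, at 16.25 to 17.30 (median 16.67), and was at 4.03 to 4.64 in LG/J (median 4.33). That level is below the negative controls, so Inmt was at least 1847-fold higher in BL6 (adjusted p = 1.3e-27). Man2b1, the lysosomal alpha-mannosidase, ran from 15.13 to 15.63 in BL6 and from 9.12 to 9.49 in LG/J. It was above the median of the negative controls in both strains and 70.9-fold lower in LG/J, with a difference of -6.15 ± 0.10 (adjusted p = 2.2e-25). The LG/J level of Man2b1 was still within the spread of the control rows, whose upper tail began at 9.64 to 10.04 in those arrays. The size of that fold is therefore uncertain. Both genes were as far apart at 6M, by -12.43 and -6.10.

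Pttg1, which encodes securin, the inhibitor of separase in mitosis, lay between 12.22 and 12.70 in BL6 and between 6.58 and 7.23 in LG/J, a difference of -5.73 ± 0.12. Dab1, an adaptor of Reelin signalling, ran from 10.84 to 11.59 in BL6 and was below the controls in LG/J, where its median was 5.65, so it was at least 39.1-fold higher in BL6. Cck, the gene of the peptide cholecystokinin, was at 12.38 to 13.55 in BL6 and at 6.79 to 8.91 in LG/J, 29.2-fold lower in the latter. These 3 genes differed by about as much at 6M (-5.74, -5.53 and -5.09). Akr1e1, an aldo-keto reductase, and Slc38a4, an amino acid transporter, differed by -5.03 ± 0.16 and -4.92 ± 0.22.

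In the other direction, Mtarc1, a mitochondrial reductase of N-oxygenated compounds, ran from 10.85 to 11.77 in LG/J and was below the negative controls in every BL6 array, at 3.60 to 4.16. It was at least 44.8-fold higher in LG/J (adjusted p = 2.2e-25). Clic5, a protein of the chloride intracellular channel family, lay between 12.59 and 14.33 in LG/J and between 7.33 and 7.92 in BL6, 65.3-fold higher. Tbc1d9, a protein with a Rab GTPase activating domain, ran from 11.07 to 12.49 against 6.61 to 7.64, a difference of 4.71 ± 0.22. None of these 3 genes overlapped between the strains.

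Eno2, the enolase of neurons, was at 10.33 to 10.94 in LG/J (median 10.83) and at 5.79 to 6.78 in BL6 (median 6.15). It was 22.8-fold higher in LG/J, with a difference of 4.51 ± 0.20 at 23M and of 4.50 at 6M. Eno1b, an intronless copy of Eno1 whose probes may read both genes, was higher by 4.62 ± 0.10. Camk2b, a subunit of calcium/calmodulin kinase II, ran from 11.60 to 12.31 against 7.69 to 8.32 and was 15.1-fold higher. Kcnh2, the potassium channel also called ERG, was at 8.44 to 9.58 in LG/J and below the negative controls in BL6 (5.22 to 5.70), at least 8.79-fold higher in LG/J.

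Immediate early genes, which are transcribed within minutes of a stimulus and need no new protein, were higher in LG/J at 23M. They encode the Fos and Jun subunits of the transcription factor AP-1 and other short-lived regulators. Of the 34 with a row, 15 were called higher in LG/J and 1 lower, and 31 had a positive difference. Their median difference was 1.09, against -0.12 over all autosomal genes, of which 3.16% were called higher. The groups overlapped, since the mean level of the list ran from 10.54 to 12.97 in LG/J and from 9.63 to 11.84 in BL6.

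Fos ran from 15.86 to 18.36 in LG/J (median 17.73) and from 14.01 to 16.76 in BL6 (median 15.78). The ranges overlapped, and the level was 4.32-fold higher in LG/J (2.11 ± 0.73, adjusted p = 0.018). Fosb, at 12.62 to 16.49 against 10.11 to 15.70, was 6.10-fold higher (2.61 ± 0.86, adjusted p = 0.014), and 1 BL6 array lay within the LG/J range at 15.70. Both calls were lost without the 2 muscle-rich BL6 arrays, Fos at 1.69 ± 0.80 (adjusted p = 0.083) and Fosb at 1.96 ± 0.91 (adjusted p = 0.079). Fosb was not called with the Y-linked level as a covariate (2.25 ± 0.96, adjusted p = 0.058).

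Junb, the AP-1 subunit that often opposes Jun, was at 11.78 to 14.86 in LG/J and at 9.99 to 12.99 in BL6, 4.34-fold higher. Ier2, a nuclear regulator without a DNA-binding domain of a known family, ran from 12.15 to 14.50 against 10.89 to 12.62, 3.74-fold higher. Zfp36, which binds AU-rich elements and speeds the decay of mRNAs such as that of Tnf, reached 12.81 to 16.47 against 10.29 to 13.37. Its 8.52-fold difference (3.09 ± 0.63, adjusted p = 0.00024) was among the larger ones of the list. Nr4a1, an orphan nuclear receptor, was 8.34-fold higher with a wide spread, at 10.67 to 16.35 in LG/J and 8.01 to 13.84 in BL6. Gadd45b was the exception, at 8.14 to 10.37 in LG/J and 10.26 to 11.52 in BL6, with a difference of -1.79 ± 0.56 (adjusted p = 0.0094).

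The number of immediate early genes called higher ran from 11 to 21 when 1 array at 23M was left out, and it was 8 without the 2 muscle-rich BL6 arrays. The lowest count came without LG/J replicate 6 and the highest without BL6 replicate 5, the arrays with the highest list mean of their strains. Only 2 of the 16 called members did not overlap between the strains. Over all autosomal genes 484 of the 591 called higher and 1030 of the 1183 called lower did not overlap. The time between death and dissection was not known here.

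**Figure D2:**
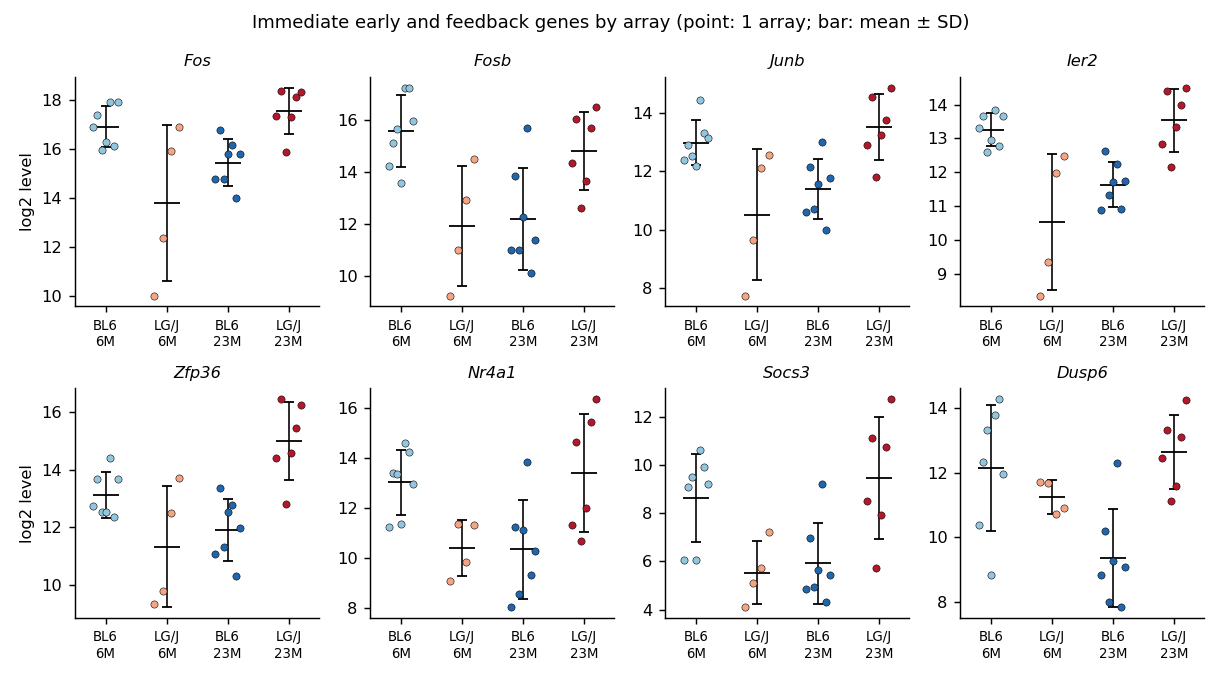
Each point is the log2 level of 1 array for 8 genes (Fos, Fosb, Junb, Ier2, Zfp36, Nr4a1, Socs3 and Dusp6) in BL6 and LG/J at 6M and 23M, with the mean and SD of each group as a bar. At 23M the LG/J mean lies above the BL6 mean in all 8 panels with overlapping points, and at 6M it lies below.

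Genes of the MAPK cascade, the kinase relay that drives many immediate early genes, were called in the same direction. Of 35 members, 9 were called higher in LG/J and 0 lower, with a median difference of 0.29. Dusp6, the phosphatase that switches off ERK, was at 11.14 to 14.24 in LG/J (median 12.79) and at 7.83 to 12.31 in BL6 (median 9.10). It was 9.78-fold higher (3.29 ± 0.73, adjusted p = 0.00055). Etv5, an ETS factor downstream of FGF and ERK, ran from 12.65 to 13.69 against 9.50 to 11.36 without overlap, 5.83-fold higher. Mapk4, the atypical kinase ERK4, lay between 7.19 and 8.49 in LG/J and below the negative controls in BL6 (3.63 to 4.56), at least 4.25-fold higher in LG/J. Dusp10, a phosphatase of JNK and p38, was higher by 1.80 ± 0.53 with overlapping ranges, and was not called with the Y-linked covariate (1.30 ± 0.55, adjusted p = 0.056).

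Among cytokines and their feedback genes, Il6 ran from 4.73 to 10.14 in LG/J (median 6.67), and all BL6 arrays were between 3.57 and 4.98. The BL6 mean was below the negative controls, and Il6 was at least 2.38-fold higher in LG/J (adjusted p = 3.8e-05). Socs3, the inhibitor of JAK kinases that IL-6 induces, was at 5.74 to 12.75 against 4.31 to 9.21, 11.7-fold higher (3.55 ± 0.95, adjusted p = 0.0029). Nfkbiz, a nuclear cofactor of NF-kB, was higher by 2.08 ± 0.47, and Lif, a cytokine of the same receptor family as Il6, was at least 1.60-fold higher. Over the 46 cytokines and chemokines 2 were called higher and 4 lower, with a median difference of -0.46. Of the lower ones, Mif, an abundant cytokine in both strains, had medians of 15.09 in BL6 and 13.84 in LG/J (-1.30 ± 0.11), while Ccl3 and Osm were below the controls in both strains.

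Markers of blood and marrow cells were lower in LG/J, above all those of neutrophils. Of the 24 neutrophil and precursor markers 19 were called lower and 0 higher, and the median difference was -2.39. The mean level of the list ran from 5.97 to 9.51 in BL6 and from 4.77 to 5.26 in LG/J. S100a8, a subunit of calprotectin, lay between 8.43 and 15.28 in BL6 (median 13.31) and between 5.34 and 7.27 in LG/J (median 5.61). By the group means it was 107-fold lower in LG/J (-6.74 ± 0.84, adjusted p = 2.9e-07). The LG/J median lay below the LG/J floor of the negative controls (5.86), so the size of that fold is uncertain. Ngp, a granule protein of neutrophils, ran from 8.09 to 16.01 in BL6 and was below the controls in LG/J, so that it was higher in BL6 by at least 7.37 on the log2 scale. BL6 replicate 1 was the lowest BL6 array for the list and still lay above every LG/J array.

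Of 10 erythroid markers 4 were called lower and 0 higher. Slc4a1, the anion exchanger of red cells, was at 8.52 to 11.25 in BL6 and 6.90 to 8.20 in LG/J (-2.31 ± 0.39), and Car2, a carbonic anhydrase found in red cells and osteoclasts, was 12.9-fold lower. Of 19 macrophage markers 5 were called lower and 2 higher. Lyz2, a lysozyme of myeloid cells that shares sequence with Lyz1, ran from 6.45 to 12.30 in BL6 and from 4.11 to 6.52 in LG/J. Mrc1, the mannose receptor, was at least 2.87-fold higher in BL6, while Cd163, a scavenger receptor for hemoglobin, and Cd14, a receptor for lipopolysaccharide, were higher in LG/J by 1.97 ± 0.18 and 1.81 ± 0.20. Of 16 T and NK cell markers, 14 lay below the negative controls in both strains and none was called by limma at both thresholds (10 had an unadjusted p under 0.05). In a bulk sample, fewer cells of a type and less RNA per cell cannot be told apart.

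Of the 22 skeletal muscle markers 11 were called lower in LG/J and 0 higher. Acta1, skeletal alpha-actin, ran from 6.97 to 11.69 in BL6 and from 4.75 to 8.92 in LG/J, and the highest LG/J array lay well inside the BL6 range. Myh4, the myosin of fast fibres, was at 5.49 to 11.28 in BL6 and below the controls in LG/J, at least 3.66-fold higher in BL6. Without the 2 muscle-rich BL6 arrays 7 muscle markers were called lower. At 6M 0 of the 22 were called.

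Other tissues near the disc gave smaller counts. Of 11 smooth muscle and pericyte markers 2 were lower and 1 higher, and Acta2, smooth muscle alpha-actin, ran from 14.85 to 16.13 in BL6 and from 8.29 to 12.60 in LG/J, 23.5-fold lower. Tagln, which binds actin in the same cells, differed by -2.71 ± 0.50, and Myh11, the myosin of smooth muscle, was higher by 1.25 ± 0.32. Without the 2 muscle-rich BL6 arrays Myh11 differed by 0.92 ± 0.32 and was not called. Of 11 Schwann cell and neuron markers 3 were called lower and 0 higher, and 6 were below the controls in both strains. A positive difference was seen in 3 of the 11. Mbp, a myelin protein, ranged widely in BL6, from 6.56 to 12.73, and was at background in LG/J (5.30 to 5.95), at least 19.0-fold higher in BL6. Of 13 endothelial markers 9 were below the controls in both strains, and of 13 epidermis markers 11.

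**Figure D3:**
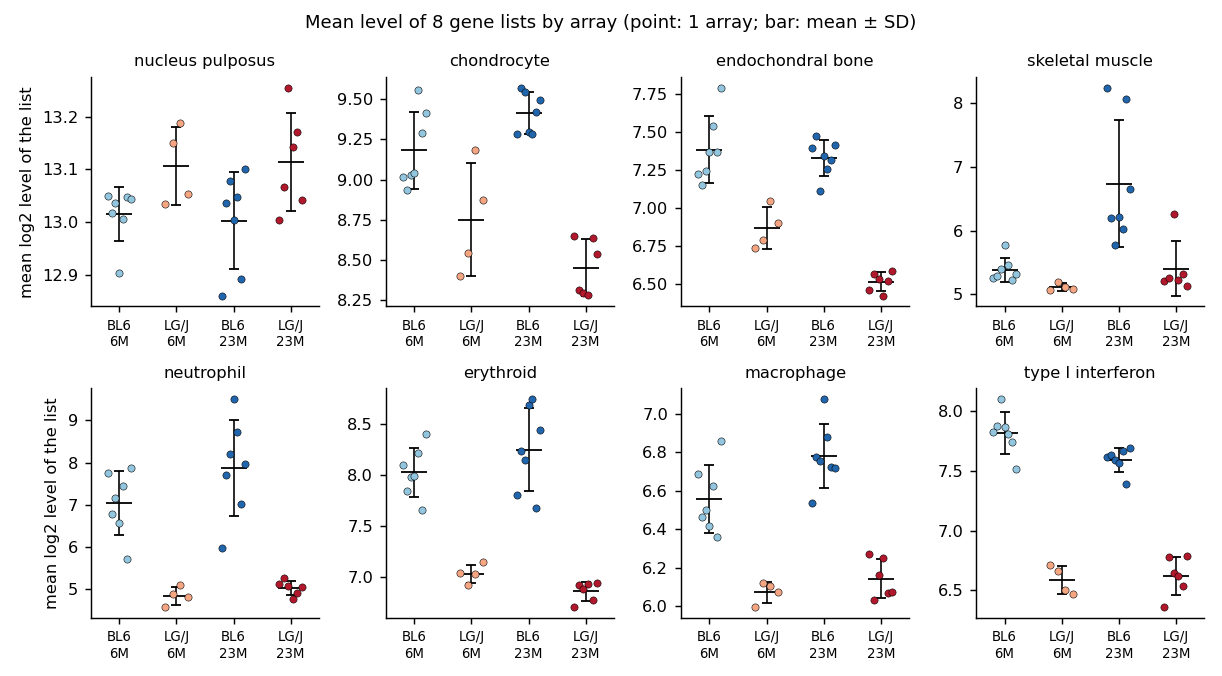
Each point is the mean log2 level of the members of a list in 1 array, for 8 lists in BL6 and LG/J at 6M and 23M, with the mean and SD of each group as a bar. At 23M the neutrophil, erythroid, macrophage, chondrocyte, endochondral bone and type I interferon lists lie lower in every LG/J array than in every BL6 array, while the skeletal muscle and nucleus pulposus lists overlap.

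Genes of the type I interferon response, which viral RNA and interferon induce through a DNA element called the ISRE, were lower in LG/J where they were called. Of 41 members 14 were called lower and 0 higher, with a median difference of -0.47. At 6M 18 were called lower. The mean level of the list ran from 7.39 to 7.69 in BL6 and from 6.36 to 6.79 in LG/J. Promoter windows in RefSeq's GRCm38.p6 tables, which span 300 bases of each start and lie mostly before it, were found for 32 of the 41 members. The ISRE core GAAANNGAA, searched on both strands, occurred in 21 of the 32 (65.6%) and in 9.76% of the 27025 genes in the table. Among the 13 called members with a window 11 held it. A match describes the letters of the window and is no evidence of binding, and the windows are those of the mouse reference genome.

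The windows of 3 of the genes with the largest differences are given because they hold that core, which is in capitals on whichever strand it lies. In the window of Ifit3 a match of TGANTCA, the AP-1 motif, is in capitals as well. Ifit3 is at chr19:34583279-34583578 on the plus strand, Gbp7 at chr3:142530086-142530385 on the plus strand and Ifih1 at chr2:62646206-62646505 on the minus strand.
Ifit3: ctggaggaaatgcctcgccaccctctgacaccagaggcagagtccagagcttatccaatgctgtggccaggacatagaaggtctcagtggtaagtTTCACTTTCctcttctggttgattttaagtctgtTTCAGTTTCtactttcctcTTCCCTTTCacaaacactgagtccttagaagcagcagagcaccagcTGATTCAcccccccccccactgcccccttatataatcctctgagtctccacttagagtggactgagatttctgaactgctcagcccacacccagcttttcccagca
Gbp7: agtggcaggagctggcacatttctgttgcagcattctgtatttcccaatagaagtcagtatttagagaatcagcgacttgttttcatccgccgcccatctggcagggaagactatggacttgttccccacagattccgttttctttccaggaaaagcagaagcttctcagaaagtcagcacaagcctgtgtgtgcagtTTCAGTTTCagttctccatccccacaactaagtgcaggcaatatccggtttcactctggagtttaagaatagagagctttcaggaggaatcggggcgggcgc
Ifih1: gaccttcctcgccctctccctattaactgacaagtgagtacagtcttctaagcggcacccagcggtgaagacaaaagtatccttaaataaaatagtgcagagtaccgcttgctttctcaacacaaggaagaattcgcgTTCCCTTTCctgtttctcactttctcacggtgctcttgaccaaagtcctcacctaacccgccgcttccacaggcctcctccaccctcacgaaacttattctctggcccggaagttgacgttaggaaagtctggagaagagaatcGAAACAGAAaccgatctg

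Ifit3, which binds other IFIT proteins that sense viral RNA, was at 12.35 to 12.92 in BL6 and at 8.06 to 9.59 in LG/J. It was 13.5-fold lower in LG/J (-3.76 ± 0.19, adjusted p = 1.4e-14), and its near copy Ifit3b differed by -3.54 ± 0.20, so that the 2 genes may not be told apart by the probes. Gbp7, a guanylate-binding protein, lay between 9.72 and 10.04 in BL6 and between 5.35 and 6.29 in LG/J, 15.6-fold lower. Ifih1, the RNA sensor MDA5, ran from 8.44 to 9.11 in BL6 and was below the controls in LG/J, at least 7.57-fold higher in BL6. No array of one strain reached the range of the other for these 4 genes. Of the list, 11 members, with Isg15, Mx1 and Oas2 among them, were below the controls in both strains.

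Of 21 genes of antigen presentation 5 were called lower and 0 higher. H2-K1, a class I molecule, was at 12.61 to 12.95 in BL6 and 11.18 to 11.43 in LG/J (-1.44 ± 0.12), and H2-DMb1, a chain of the class II chaperone, was at least 11.8-fold higher in BL6. These genes differ in sequence between strains, and the part of that in these values was not tested. Ifngr1, the ligand-binding chain of the interferon gamma receptor, differed by -1.36 ± 0.10, and Tnfsf10, the death ligand TRAIL, by -2.44 ± 0.27.

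The genes of cartilage that were called were mostly lower in LG/J. Acan, which encodes aggrecan, ran from 18.16 to 18.60 in LG/J and from 17.92 to 18.18 in BL6 (0.37 ± 0.09, adjusted p = 0.0020), short of the fold threshold. Of 17 chondrocyte markers 5 were called lower and 1 higher. Chad, the collagen-binding protein chondroadherin, lay between 11.39 and 12.72 in BL6 and between 5.73 and 8.34 in LG/J, 45.5-fold lower (-5.51 ± 0.50, adjusted p = 1.4e-09). Ucma, a Gla-rich protein of the growth plate that inhibits mineral growth in cartilage, ran from 10.36 to 11.81 against 5.69 to 6.75, 27.4-fold lower. Col2a1, the main collagen of cartilage, reached the threshold at 1.00 ± 0.36 with overlapping ranges, and 6 of the 13 single arrays ended that call when left out, as did leaving out the 2 muscle-rich BL6 arrays (0.84 ± 0.39, adjusted p = 0.081).

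Of 35 genes of proteoglycans and their synthesis 6 were called lower and 1 higher, with a median difference of -0.05. Dcn, decorin, was at 13.53 to 15.27 in BL6 and 10.02 to 11.48 in LG/J, 13.6-fold lower (-3.77 ± 0.61, adjusted p = 1.3e-05). Prelp, a leucine-rich repeat protein that anchors basement membranes, ran from 16.12 to 16.47 against 13.79 to 14.68, 4.34-fold lower. Vcan, versican, differed by -1.65 ± 0.37, and Prg4, lubricin, by -1.51 ± 0.49 with overlapping ranges. Prg4 was not called without the 2 muscle-rich BL6 arrays (-1.05 ± 0.50, adjusted p = 0.087).

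Collagens differed in both directions, with 5 of 27 called higher in LG/J and 4 lower. Col6a3, a chain of the pericellular collagen VI, was at 13.26 to 14.23 in LG/J and 12.01 to 12.81 in BL6, 2.39-fold higher. Col5a1, a chain of fibrillar collagen V, ran from 7.17 to 8.37 against 5.32 to 6.36, 3.53-fold higher. Col27a1 was higher by 1.30 ± 0.16, and Col3a1 was at least 1.32-fold higher. On the other side Col1a2, a chain of collagen I, differed by -1.89 ± 0.44 with overlapping ranges, and Col10a1, the collagen of hypertrophic chondrocytes, is described with the genes that changed between ages. Among the other matrix proteins 6 of 36 were called higher and 5 lower. Fbln2, fibulin-2, was higher by 2.26 ± 0.25, and Ccn5, a matricellular protein of the CCN family, differed by -2.88 ± 0.21. Comp and Cilp, proteins of the annulus and cartilage, differed by -1.83 ± 0.50 and -2.10 ± 0.51, and both overlapped between the strains.

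Of the 30 matrix proteases and inhibitors 4 were lower and 1 higher. Adamts1, a protease of versican and aggrecan, was 16.7-fold lower in LG/J, at medians of 7.84 against 12.01. Adamts12, which cleaves Comp in vitro, was higher by 2.36 ± 0.21. Mmp8 and Mmp9, proteases that neutrophil granules store, were at least 5.02-fold and 1.35-fold higher in BL6, and both are also members of the neutrophil list.

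Genes of the endochondral bone and osteoblast list were mostly dim, and those of the list that were called were lower in LG/J. Calls went both ways among the 8 bone genes with a row that the study discusses, with 2 higher and 2 lower. The lower ones were Col10a1 and Alpl, the latter below the negative controls in both strains. These 8 genes were chosen on these samples and are no independent evidence. Bmp6 and Tgfb2, given below with the TGF-beta genes, were higher in LG/J. Of the 25 endochondral bone and osteoblast genes 8 were called lower and 0 higher, and 15 were below the negative controls in both strains. Ibsp, bone sialoprotein, was at 8.47 to 10.59 in BL6 and at 4.33 to 6.25 in LG/J, at least 13.8-fold higher in BL6. Mef2c and Pth1r, regulators of chondrocyte hypertrophy, differed by -1.93 ± 0.22 and -1.35 ± 0.15. Alpl, tissue-nonspecific alkaline phosphatase, Bglap, osteocalcin, and Sp7, osterix, were below the controls in both strains. Of 23 genes of mineralization and phosphate handling 2 were lower and 0 higher, and Entpd1, a nucleotidase of the cell surface, differed by -1.30 ± 0.19. The count of lower bone genes was 5 under quantile normalization.

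TGF-beta and BMP ligands lay on both sides, with 5 of 43 members of the pathway called higher, 2 lower and a median difference of 0.18. Tgfb2 ran from 14.75 to 15.34 in LG/J (median 14.93) and from 12.43 to 13.84 in BL6 (median 12.88), 4.00-fold higher. Bmp6 was at 8.98 to 11.15 against 7.50 to 8.40, 4.15-fold higher, and Bmp7 at 6.52 to 7.47 against 9.38 to 10.34, 8.13-fold lower. Bmp1, the procollagen C-proteinase, and Smad1, which carries BMP signals to the nucleus, were higher by 1.28 ± 0.19 and 1.31 ± 0.15. Ltbp1, which stores latent TGF-beta in the matrix, differed by -1.96 ± 0.18. The strains did not overlap in any of the 7 called members, as in most called genes (484 of 591 higher and 1030 of 1183 lower).

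Of 35 growth factors and receptors 5 were called higher and 1 lower, with a median difference of -0.05. Pdgfa and Pdgfc, ligands of the PDGF alpha receptor, were higher by 1.57 ± 0.12 and 1.90 ± 0.23, and Fgf2 by 0.81 ± 0.16, under the fold threshold. Of 39 WNT genes 5 were lower and 0 higher. Sfrp5, a secreted WNT inhibitor, was at least 5.93-fold higher in BL6, Wnt16 was lower in LG/J, with medians of 11.28 in BL6 and 9.36 in LG/J, and the receptor Fzd2 differed by -1.58 ± 0.17. Of 46 adhesion genes 7 were higher and 5 lower. Icam1 and Itga5, the latter a subunit of the fibronectin receptor, were higher by 2.35 ± 0.27 and 1.45 ± 0.24, while Dsc3 and Dsg2, desmosomal cadherins, differed by -4.08 ± 0.14 and -1.39 ± 0.13.

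Genes of wound healing and coagulation were called higher and lower in equal number, 3 and 3 of 23. Plat, tissue plasminogen activator, ran from 8.56 to 9.92 in LG/J and from 5.45 to 6.65 in BL6, 8.88-fold higher. Tfpi, the inhibitor of the tissue factor pathway, was at least 3.99-fold higher in BL6, and Anxa1, an annexin that dampens inflammation, differed by -1.76 ± 0.12. Cd59a, which blocks the membrane attack complex of complement, was higher by 2.44 ± 0.17.

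Redox genes were split within 1 pathway. Of 33 oxidative stress genes 5 were higher and 2 lower. Txn1, thioredoxin, was at 14.97 to 15.70 in LG/J and 13.69 to 14.18 in BL6, 2.83-fold higher. Txnrd1, the reductase that recharges it, was at 7.23 to 8.02 against 10.00 to 10.45, 5.79-fold lower. Srxn1, sulfiredoxin, Gsr, glutathione reductase, and Gsta4, a glutathione transferase, were higher by 1.24 ± 0.14, 1.28 ± 0.15 and 1.92 ± 0.14. None of these overlapped between the strains.

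Of 39 cell death genes 2 were called higher and 1 lower, with a median difference of -0.11. Of the 8 death and stress genes that the study discusses, which were chosen on these samples and are no independent evidence, 4 were called higher (Mapk4, Dusp6, Fosb and Fos). Casp6 was higher by 0.93 ± 0.15, Rela by 0.59 ± 0.14 and Bcl2 by 0.54 ± 0.19, under the fold threshold, and Casp4 differed by 0.28 ± 0.24 (adjusted p = 0.34). The study, by another test, reported Bcl2 as decreased in LG/J and the rest of these genes, Casp4 included, as increased. Of 20 p53 targets 3 were higher and 2 lower. Tnfrsf10b, the receptor of TRAIL, and Aen, an exonuclease that p53 induces, were higher by 1.10 ± 0.14 and 1.05 ± 0.13 (Aen 0.98 ± 0.15 with the Y-linked covariate, under the fold threshold), and Phlda3 was at least 2.71-fold higher in BL6.

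Of 68 genes of oxidative phosphorylation 1 was higher (Ndufa6, 1.25 ± 0.11) and 2 were lower (Uqcrq, -1.29 ± 0.09, and Sdha, -1.11 ± 0.12). Of 34 genes of the hypoxia response and glycolysis 2 were higher, both of them enolases described above, and 1 was lower (Pfkl, -1.13 ± 0.16, and -0.96 ± 0.17 with the Y-linked covariate, under the fold threshold). Of 31 heat shock and unfolded protein genes none was called by limma at both thresholds (17 had an unadjusted p under 0.05), and the most abundant, Hsp90b1 and Hspa5, differed by 0.02 ± 0.10 and -0.41 ± 0.17. Map1lc3b, the LC3B protein of the autophagosome, was 6.23-fold lower in LG/J (-2.64 ± 0.12), and of 38 autophagy and lysosome genes 4 were lower and 0 higher. In the circadian clock Arntl was higher by 1.92 ± 0.30 and its repressor Nr1d1 was lower, with medians of 14.80 in BL6 and 12.65 in LG/J. The time of day of dissection was not known here.

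**Figure D4:**
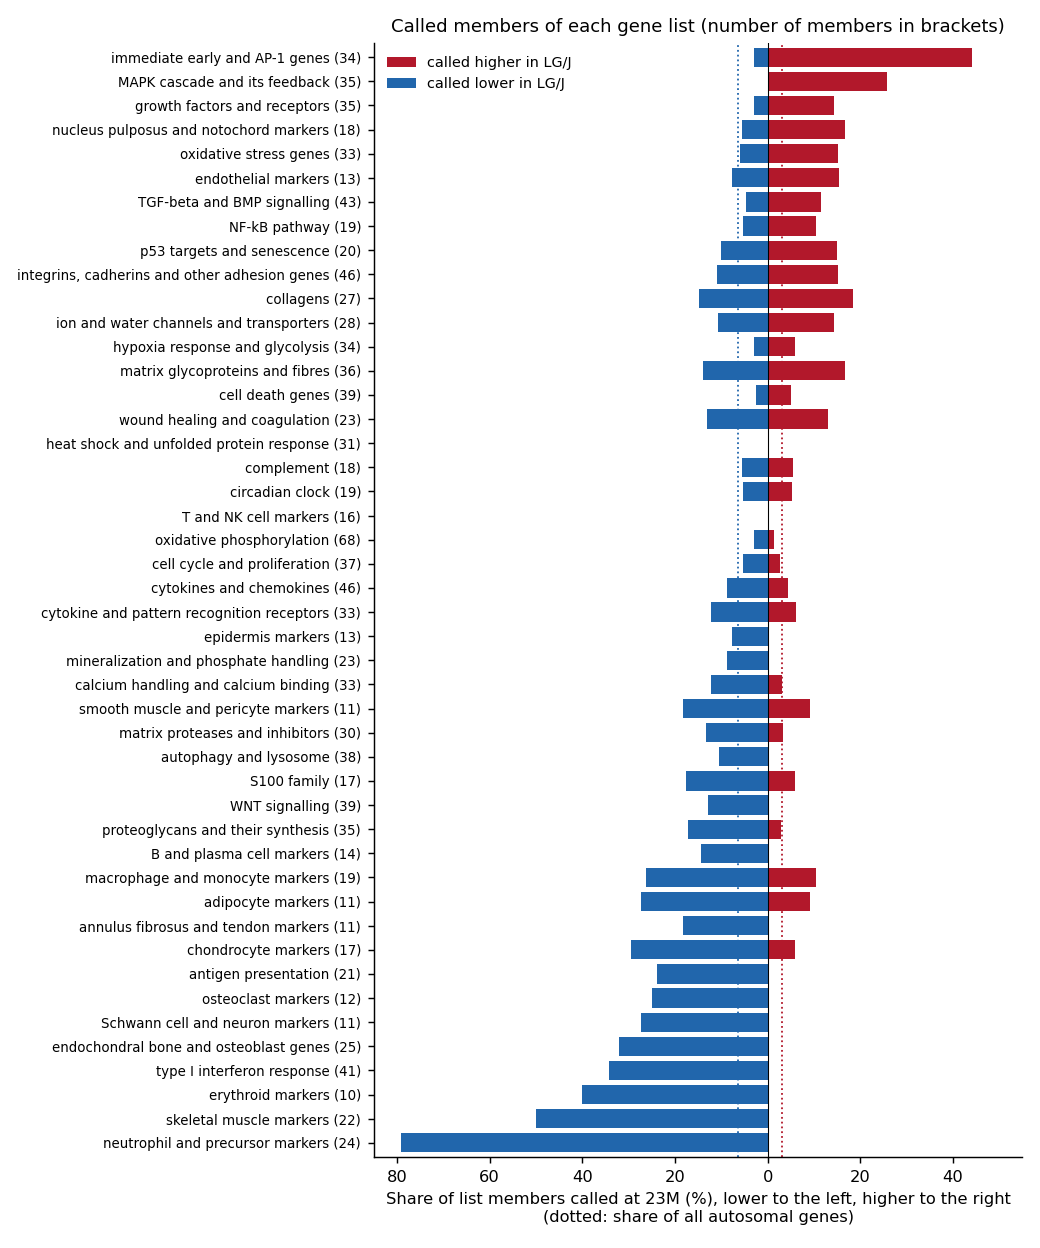
Bars give the share of each list's members (number in brackets) called higher in LG/J at 23M, to the right in red, and lower, to the left in blue, in percent. Dotted lines mark the shares over all autosomal genes, 3.16% higher and 6.34% lower. Immediate early genes (15 of 34) lie at the top and neutrophil markers (19 of 24) at the bottom.

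Most of the genes called at 23M were also called at 6M. At 6M, where 8.24% of genes were called (2.5% higher and 5.74% lower), 324 genes were higher at both ages, or 54.8% of those higher at 23M and 69.5% of those higher at 6M. For lower genes the count was 782, or 66.1% and 72.9%. The calls at 23M that had no call at 6M were 254 higher and 400 lower genes, and 13 genes were higher at 23M and lower at 6M. Only Col10a1 was lower at 23M and higher at 6M.

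Whether a strain difference changed with age was tested directly. The difference at 23M differed from that at 6M in 80 autosomal genes (0.428%), 55 of them more upward at 23M (0.295%) and 25 more downward (0.134%). Of the former, 27 were also called higher at 23M. The Y-linked level was low in all 4 LG/J arrays at 6M (3.28 to 3.70) and high in all 6 at 23M, so in LG/J age and sex cannot be told apart. With the Y-linked level as a covariate 41 genes passed, 25 upward and 16 downward.

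Of the 34 immediate early genes, 7 were more upward at 23M and 0 more downward. At 6M 15 of its members were called lower in LG/J and 0 higher, with a median difference of -1.29. Fos differed by -3.12 at 6M and by 2.11 at 23M, a change of 5.23 (adjusted p = 0.024, and 0.12 with the covariate). Its LG/J arrays at 6M were at 10.00, 12.36, 15.91 and 16.88. Without LG/J 6M replicate 2 the count over all genes fell from 80 to 42. Ier2 changed by 4.62 (adjusted p = 0.0028) and stayed past the threshold with the covariate (4.57, adjusted p = 0.027). Fosb, Socs3, Zfp36 and Junb changed by 6.27, 6.66, 4.89 and 4.58, with adjusted p of 0.022, 0.028, 0.014 and 0.018, and with the covariate their adjusted p were 0.15, 0.17, 0.074 and 0.11. The changes of Fos, Fosb, Junb, Socs3 and Zfp36 did not pass without LG/J 6M replicate 1 or without LG/J 6M replicate 2, where the adjusted p was 0.088, 0.071, 0.065, 0.077 and 0.060 in the latter case. Socs3 did not pass in 7 of the 24 fits that left out 1 array. Without the 2 muscle-rich BL6 arrays the adjusted p was 0.066 for Fos, 0.059 for Fosb, 0.056 for Junb and 0.070 for Socs3. Ier2 passed in all 24 fits that left out 1 array. For Nr4a1 and Dusp6 the change was 5.69 and 4.17 (adjusted p = 0.054 and 0.089).

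The window of Zfp36, at chr7:28379179-28379478 on the minus strand of GRCm38.p6, is given because it holds a CArG box, the element that serum response factor reads in many immediate early genes, in capitals.
Zfp36: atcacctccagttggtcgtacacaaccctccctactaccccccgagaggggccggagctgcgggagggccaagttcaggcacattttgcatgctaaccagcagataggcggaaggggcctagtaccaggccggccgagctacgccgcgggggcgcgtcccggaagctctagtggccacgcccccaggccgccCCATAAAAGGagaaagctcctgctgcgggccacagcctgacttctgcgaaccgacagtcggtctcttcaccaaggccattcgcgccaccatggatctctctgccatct
A CArG box was found in 3 of the 28 immediate early genes with a window (10.7%) (Egr2, Srf and Zfp36, which were all called higher) and in 1.81% of all genes. The cyclic AMP element TGACGTCA occurred in 2 of the 28 (7.14%, against 2.03% of all genes), and the AP-1 motif TGANTCA in 1 (3.57%, against 8.97%). Among the 28 genes of TGF-beta and BMP signalling with a window the CArG box occurred in 0 and each of the other 3 motifs in 1.

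Among the genes that moved downward, Col10a1 was at 6.75 to 9.91 in BL6 (median 8.33) and at 4.11 to 7.07 in LG/J (median 5.17) at 23M, at least 5.27-fold higher in BL6. At 6M it was higher in LG/J by 1.68, and the change was -4.42 (adjusted p = 0.013). Chad went from -2.12 at 6M to -5.51 at 23M (change -3.38, adjusted p = 0.037, and 0.070 with the covariate). That change passed the threshold in 11 of the 24 fits that left out 1 array, with adjusted p up to 0.097. Slit3, a guidance protein of the Robo receptors, was at 9.22 to 10.42 in LG/J and 12.64 to 13.12 in BL6, 8.83-fold lower at 23M, and its difference at 6M was -1.66 (change -1.49, adjusted p = 0.0020). Lrp3, an LDL receptor relative, ran from 9.66 to 10.20 against 8.43 to 8.84, higher in LG/J by 1.24 at 23M and by 2.52 at 6M (change -1.29, adjusted p = 0.00065). S100a10, the partner of annexin A2, was higher at 23M, at 13.36 to 14.00 against 12.22 to 12.79, and differed by -0.08 at 6M (change 1.26, adjusted p = 0.013, and 0.089 with the covariate).

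**Figure D5:**
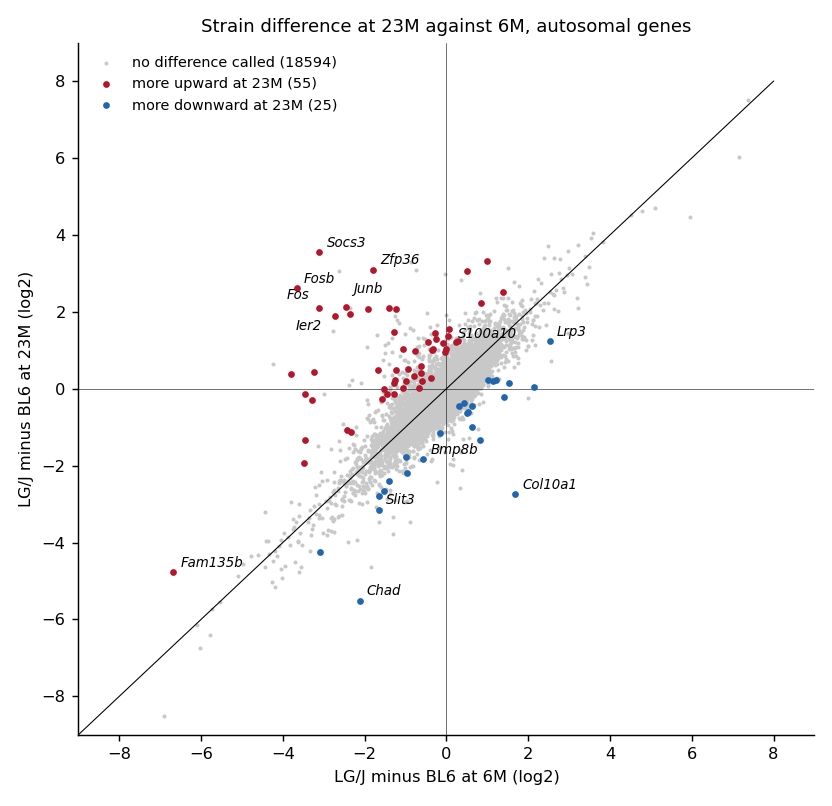
Each point is 1 autosomal gene, with LG/J minus BL6 (log2) at 6M on the horizontal axis and at 23M on the vertical axis, and the line marks equal differences. The 55 genes more upward at 23M are red and the 25 more downward are blue, with Fos, Fosb, Socs3 and Zfp36 at the upper left and Col10a1 at the lower right, and 1 gene (Inmt) lies outside the axes.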

How the data were processed

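NP RNA was hybridized to Clariom S arrays. Per the labels and the study's methods, the authors made the deposited log2 values with Affymetrix Expression Console; the labels name RMA and the methods SST-RMA, while no build is named for the annotation. The deposited table of values had 28846 rows, with 6640 controls and 2634 others without a symbol. Each gene kept its row with the highest mean. Group means were fitted to the 24 BL6 and LG/J arrays of both ages with limma 3.58.1 (lmFit and eBayes) in R 4.3.3, with data.table (version 1.17.8), and p-values were Benjamini-Hochberg adjusted over 19505 genes. SM/J arrays, which were of 6M only, were left out. Calls needed a fold of 2 or more and an adjusted p below 0.05; the test of the difference between ages had no fold threshold. No pair of arrays held identical values. The number of arrays limits the precision, and each array was 1 animal.

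A gene whose mean in 1 group lay below that group's mean of the median of 5222 negative control rows was given a bound against that floor ("at least"), and below it in both groups no difference. That floor is a median, and the control rows spread widely around it. Their upper tail began at 9.60 to 10.04 in the arrays at 23M, so a level above the floor need not be clear of background. A rule set the named genes. It took the 12 largest called rises and falls without overlap. It also took up to 4 called members of each list in each direction (the 2 most abundant in a list without calls). Every NP marker and every bone or death gene the study discusses were added where they had a row. The 6 largest changes between ages in each direction were added as well. The text describes only some of these named genes. Isg15, Mx1, Oas2, Egr2 and Srf were named outside that rule, after their values were seen. The members and gene lists were chosen with earlier results of these data known. Alternatives were other array sets, quantile normalization, median centring, moderation, array weights, a filter on dim genes, fold thresholds, a Y-linked covariate, a replicate block and leaving out each array. The fit was tested on simulated data. Figures were drawn with matplotlib 3.10.9 in Python 3.11.15.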

Additional observations from a re-analysis of the deposited data

Results flagged for a closer look

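In 8 of 134 groups tested, 1 array stood apart from the rest of its group, where chance gives about 1 in 20. In LG/J at 23M the lowest array stood apart for Cck (6.79), Eno2 (10.33) and Ucma (5.69), and the highest for Acta1 (8.92), Mbp (5.95) and the mean of the skeletal muscle markers (6.27). In BL6 at 23M the highest array stood apart for the mean of the MAPK genes (8.25) and the lowest for the mean of the type I interferon genes (7.39).

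The strain difference at 23M differed from that at 6M by limma's test for 11 of the genes described. The change was upward for Socs3 (6.66), Fosb (6.27), Fos (5.23), Zfp36 (4.89), Ier2 (4.62), Junb (4.58) and S100a10 (1.26). It was downward for Col10a1 (-4.42), Chad (-3.38), Slit3 (-1.49) and Lrp3 (-1.29).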

How the results depend on the processing

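No named gene that was called changed sign, but the excess of lower calls turned into an excess of higher ones under median centring (52.8% of calls higher, against 33.3%). Without a fold threshold 9576 genes were called (3454 higher, 6122 lower), and at a fold of 4 there were 331 (88 and 243). Median centring gave 914 higher genes in place of 591 and moved the median difference from -0.12 to 0.05. The median gene level of an array, which centring makes equal, averaged 6.31 in LG/J and 6.48 in BL6 at 23M. Why these levels differed was not tested. The count of lower bone genes was 5 under quantile normalization and 5 among genes above the negative controls, where fewer genes were tested. With the Y-linked covariate 41 genes changed between ages (25 upward, 16 downward). Without the 2 muscle-rich BL6 arrays, an alternative chosen after seeing the data, 8 immediate early genes were higher and 7 muscle markers lower. Both of those arrays also had a high Y-linked level. Of 195 named genes called, 14 lost the call under quantile normalization, 16 under median centring, 11 with the Y-linked covariate and 14 without those 2 arrays.

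Leaving out 1 array gave 1728 to 1814 calls (573 to 613 higher, 1154 to 1216 lower), 8 to 11 MAPK and 11 to 21 immediate early genes higher, and as lower genes 5 to 5 chondrocyte, 7 to 9 bone, 17 to 21 neutrophil, 8 to 13 muscle and 14 to 14 interferon genes. The changes between ages were 42 to 130 (31 to 98 upward, 11 to 32 downward), lowest without LG/J 6M replicate 2 and highest without BL6 23M replicate 5.

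The array numbers did not pair the samples: deviations of same-numbered arrays correlated at -0.06, -0.02, -0.10 and 0.09. With the number as a replicate block 1859 genes were called at 23M, 1593 of them among the 1774. Of the 195 named genes 15 lost the call, Fos among them (1.87 ± 0.95, adjusted p = 0.14), and the test between ages called 0 genes (0 upward, 0 downward), against 80 without it. The block fitted a term for each array number, which left fewer degrees of freedom for the spread. The part of that in the fall to 0 was not tested.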
